A study of Mus musculus with 3 samples.

Results

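Calponins, caldesmon, tropomyosins and alpha-actinins are proteins that bind actin filaments, and 10 of their genes were followed: Cnn1, Cnn2, Cnn3, Cald1, Tpm1, Tpm2, Tpm3, Tpm4, Actn1 and Actn4. A gene was taken as the row of the deposited gene table whose alias column held its symbol. All 10 symbols were found, each on 1 row of the 27389 gene clusters. The RNA came from CAD cells, a mouse catecholaminergic neuroblastoma line, harvested 72 h after transfection. One library had received siRNAs against Ptbp1 and Ptbp2 together, 1 library siRNAs against Ptbp1, and 1 library control siRNAs. All siRNAs were ON-TARGETplus reagents, and the poly(A)+ RNA was read as 36-base pairs.

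Tropomyosins are coiled-coil dimers that lie end to end along the actin filament and set which other proteins can reach it. Calponins and caldesmon bind the same filaments and, in smooth muscle, restrain myosin on them, while alpha-actinins are rods that cross-link filaments and tie them to adhesion sites. Muscle and non-muscle forms are made by separate genes, by alternative exons or by both, depending on the family. Tropomyosin and alpha-actinin exons are classic substrates of polypyrimidine tract binding protein, which is encoded by Ptbp1 and has a neuronal paralogue encoded by Ptbp2. In the rat, this protein represses one exon of a mutually exclusive pair in Tpm1, and it also acts on the exon pairs of Tpm2 and Actn1.

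Those exon pairs could be located in the mm9 genome from the GENCODE vM1 annotation, but the deposited values are gene totals, so no exon choice was measured. A pair was taken as 2 non-overlapping exons that annotated transcripts use between the same neighbouring splice sites. Tpm1 held a pair of 126 bases each and a pair of 76 bases each, Tpm2 and Tpm3 a pair of 76 bases each, and Actn4 a pair of 86 bases each. The Actn1 pair had 81 and 66 bases. Only the Tpm1 pair of 126 bases was also annotated with both exons in 1 transcript. Whether both exons of a pair lie within the counted cluster length was not checked, and effects of exon choice on the gene totals were not tested. The stretches before the exons are shown because they carry the pyrimidine tracts for which these genes are known. Each is up to 150 intron bases, 5′ to 3′ on the gene's strand, ending at the exon, and capitals mark the letters TCTT and CTCTCT, which may overlap each other.
Tpm1, first exon of the pair, chr9:66896057-66896206, minus strand: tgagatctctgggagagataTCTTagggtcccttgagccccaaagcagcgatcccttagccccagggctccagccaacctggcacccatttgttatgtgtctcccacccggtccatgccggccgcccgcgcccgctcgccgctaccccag
Tpm1, second exon of the pair, chr9:66895719-66895868, minus strand: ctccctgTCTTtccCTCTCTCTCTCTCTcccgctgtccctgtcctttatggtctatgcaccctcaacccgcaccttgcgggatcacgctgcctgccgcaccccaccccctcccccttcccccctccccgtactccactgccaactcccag
Tpm2, second exon of the pair, chr4:43531592-43531741, minus strand: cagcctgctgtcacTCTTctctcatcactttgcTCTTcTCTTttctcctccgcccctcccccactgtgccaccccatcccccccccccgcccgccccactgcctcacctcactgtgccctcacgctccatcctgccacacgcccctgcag
Tpm3, second exon of the pair, chr3:89892820-89892969, plus strand: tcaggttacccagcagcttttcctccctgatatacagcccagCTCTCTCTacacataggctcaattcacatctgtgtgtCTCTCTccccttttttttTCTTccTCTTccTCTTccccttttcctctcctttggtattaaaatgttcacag
Actn1, first exon of the pair, chr12:81271754-81271903, minus strand: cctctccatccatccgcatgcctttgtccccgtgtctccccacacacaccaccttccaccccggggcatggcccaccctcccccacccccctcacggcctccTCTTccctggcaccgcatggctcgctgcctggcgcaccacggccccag
Actn1, second exon of the pair, chr12:81271236-81271385, minus strand: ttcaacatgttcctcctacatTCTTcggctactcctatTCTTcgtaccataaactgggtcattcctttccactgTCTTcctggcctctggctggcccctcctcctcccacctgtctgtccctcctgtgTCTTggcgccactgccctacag
Actn4, second exon of the pair, chr7:29695008-29695157, minus strand: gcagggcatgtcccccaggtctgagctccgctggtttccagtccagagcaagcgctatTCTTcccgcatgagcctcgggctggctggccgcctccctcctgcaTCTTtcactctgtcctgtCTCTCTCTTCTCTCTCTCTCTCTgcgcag

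The second Tpm1 exon is preceded by 5 overlapping matches to CTCTCT and the window is 77.3% pyrimidine, against 58.7% and no such match before the first exon of that pair. The window before the second Tpm2 exon was 78.7% pyrimidine with 3 TCTT, against 45.9% with none before the first. In Actn1 the second exon had 4 TCTT in its window and the first had 1, with 72.7% and 70.7% pyrimidines. The Actn4 window held 7 overlapping CTCTCT matches and the Tpm3 window 3. TCTT did not separate the exons of every pair. In Tpm3 the windows before the first and second exon held 3 TCTT each, with 70.0% and 73.3% pyrimidines. Each window of the Tpm1 pair of 126 bases held 1 TCTT. Of 155783 windows of 150 bases before internal coding exons, 12.8% held CTCTCT, 73.9% held TCTT at least once and 5.33% held it 4 times or more, on the transcribed strand. These matches describe the sequence alone.

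The 3 libraries held between 14242557 and 16899510 reads in the clusters used, and 1 CPM, reads scaled to a common library size, stood for 14.5 to 17.2 reads. Ptbp1 had 1516 reads after both siRNAs, 1486 after Ptbp1 siRNA and 7191 in the control library, and Ptbp2 had 633, 3044 and 784. The library with both siRNAs was thus 4.43-fold lower in Ptbp1 than the control (95% counting interval 4.19 to 4.69), with Ptbp2 near its control level. The 11 markers of catecholaminergic neuroblastoma cells all reached 1 CPM and summed to 4884, 4222 and 4873 CPM in the order both siRNAs, Ptbp1 siRNA and control. Single markers differed more than the sums. After both siRNAs Dbh exceeded the control 2.32-fold (2.21 to 2.45) and Phox2a 2.07-fold (1.94 to 2.20). Muscle markers summed to 59.2, 75.4 and 74.1 CPM with 8 of 11 at 1 CPM or more, and fibroblast markers to 10.6, 15.9 and 16.5 CPM with 4 of 9. Glial markers summed to 4.84, 5.81 and 2.97 CPM and blood and endothelial markers to 11.8, 16.9 and 22.4 CPM, with 1 of 7 and 2 of 6 at that level. Col1a2, Slc1a3, Hba-a1 and Hbb-b1 were listed at 0 in every library.

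Each group had 1 library, so no p-value is given and no difference has a replicate check. Differences are on the log2(CPM + 1) scale. Folds are ratios of scaled reads, and their 95% intervals are exact conditional binomial ones that cover counting error only, not variation between cultures. A gene was called lower or higher by size at a 2-fold difference or more on the log2(CPM + 1) scale, with 1 CPM in at least 1 library of the pair and an interval that left out 1. In a culture, fewer cells that express a gene and less RNA per cell cannot be told apart.

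Cnn1 aside, the 9 other genes were all well above the 1 CPM limit, between 20.6 and 352 CPM in the control library. Genes were compared per kilobase of cluster length, so their order depends on that length. It was 2774 bases against 6485 annotated exon bases for Tpm1, but 2082 against 2203 for Tpm4. The counting intervals cover neither the choice of length nor reads that match elsewhere in the genome. On this measure Tpm4 was the highest in each library, at 81.0 CPM per kb after both siRNAs, 83.3 after Ptbp1 siRNA and 123 in the control. After both siRNAs its counting interval overlapped that of Cnn3, at 77.3 CPM per kb. In the control library Actn1 came next at 87.7 CPM per kb, then Actn4 at 75.5 and Cnn3 at 75.2, whose intervals overlapped, and Tpm3 at 61.6. Cnn2 at 42.0, Cald1 at 32.6, Tpm1 at 21.7 and Tpm2 at 9.47 CPM per kb followed there without overlap. After both siRNAs the lower end of this order differed: Tpm1 stood at 28.8, Tpm2 at 12.5, Cnn2 at 9.08 and Cald1 at 7.30 CPM per kb, again without overlapping intervals. In the library with Ptbp1 siRNA alone, Cnn2 at 15.0 and Tpm2 at 14.5 CPM per kb overlapped and Cald1 was at 12.2. Cnn2 and Cald1 were therefore the pair that lay above Tpm1 in the control and below Tpm2 after both siRNAs.

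**Figure D1:**
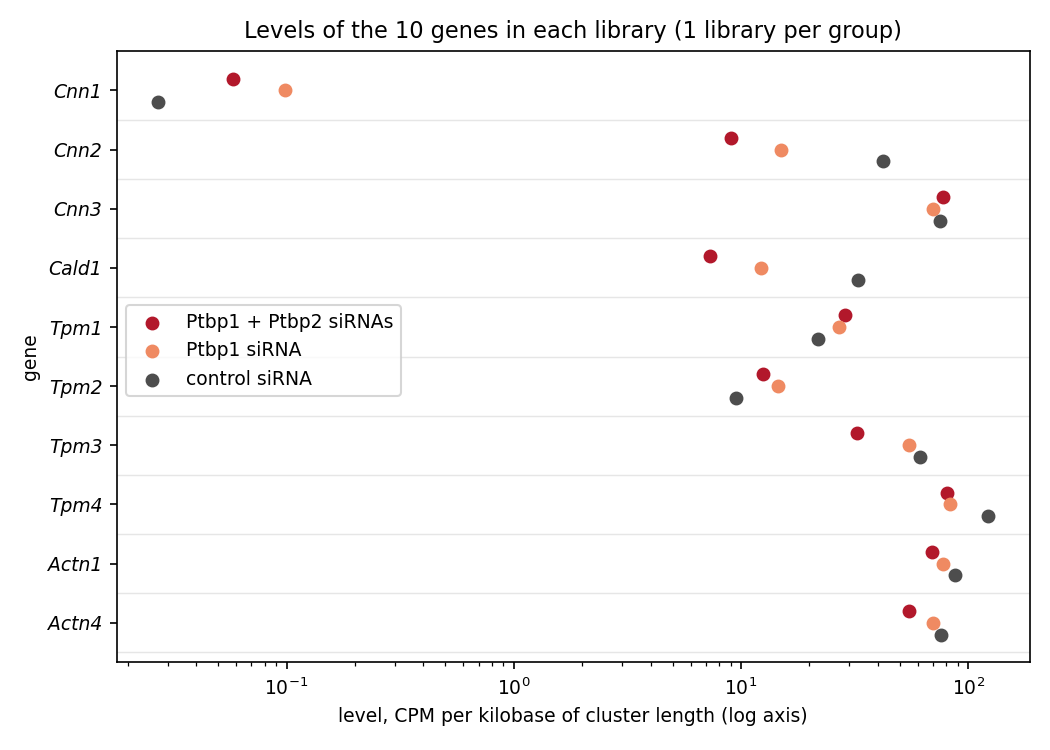
Level of each gene in CPM per kilobase of cluster length (log axis), with 1 point per library and the 3 siRNA groups in colour. Cnn2 and Cald1 lie far to the left of their control points in both knockdown libraries, Tpm1 and Tpm2 lie to the right, and Cnn1 is near 0 in every library.

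Cnn2, the calponin of many non-muscle cells, and Cald1, the only caldesmon gene, were the 2 genes called in both knockdown libraries, and they were called lower. Cnn2 (chr10:79451345-79458145 in mm9, as are all gene positions here, plus strand, cluster length 1782 bases) had 234 reads after both siRNAs, 461 after Ptbp1 siRNA and 1160 in the control library, which is 16.2, 26.8 and 74.9 CPM. Against the control it was 4.63-fold lower after both siRNAs (4.02 to 5.35) and 2.80-fold lower after Ptbp1 siRNA (2.51 to 3.12). The control library was the highest and the library with both siRNAs the lowest, and Cnn2 was 1.66-fold lower with Ptbp2 siRNA added than with Ptbp1 siRNA alone (1.41 to 1.95).

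Cald1 (chr6:34548544-34725469, plus strand, 5339 bases), whose product inhibits the actomyosin ATPase in smooth muscle and stabilises filaments in other cells, had 564, 1123 and 2695 reads in the same order, or 39.0, 65.3 and 174 CPM. Against the control it was 4.46-fold lower after both siRNAs (4.07 to 4.90), 2.67-fold lower after Ptbp1 siRNA (2.49 to 2.86), and 1.67-fold lower with both than with Ptbp1 siRNA alone (1.51 to 1.86). The order of the libraries was that of Cnn2. The proportion between these genes hardly differed between libraries: there were 2.41 Cald1 reads per Cnn2 read after both siRNAs (2.07 to 2.82), 2.44 after Ptbp1 siRNA (2.18 to 2.72) and 2.32 in the control (2.17 to 2.49), with overlapping intervals.

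Among all clusters tested, counted from the lowest difference, Cnn2 ranked 8 and Cald1 ranked 11 of 13465 in the comparison of both siRNAs with control. In the comparison of Ptbp1 siRNA with control they ranked 9 and 12 of 13399. These comparisons share the control library. With both siRNAs against Ptbp1 siRNA alone, which does not use that library, Cald1 was at -0.73 and Cnn2 at -0.69 on the log2 scale, ranks 209 and 252 of 13463, and neither reached the size for a call.

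Of the 9 genes that reached 1 CPM, 2 were called lower and none higher after both siRNAs against control, where 2.67% of all tested clusters were called lower and 1.05% higher. In either direction it was 3.73%. The genes were chosen with earlier results of these data known, so these shares and the ranks above are descriptions and not a test. Scaling by the plain library sums gave 282 lower and 193 higher calls among all clusters, a share of 40.6% higher against 28.3%. The median difference of the 9 genes was -0.46, against -0.01 over all tested clusters. For Ptbp1 siRNA against control, again 2 were called lower and none higher, with 0.455% of all tested clusters called lower, 0.269% higher and 0.724% in either direction. There the same change of scaling gave 47 lower and 50 higher calls, 51.5% higher against 37.1%, the deposited RPKM gave 35 lower and 13 higher, 27.1% higher. With the trimmed-mean factors the medians were -0.17 for the 9 genes and -0.01 for all clusters, while that of the 9 genes was -0.10 with library-sum scaling and -0.10 with the deposited RPKM. Between both siRNAs and Ptbp1 siRNA none of the 9 was called, where 0.342% of clusters were called lower, 0.0891% higher and 0.431% in either direction, and the medians were -0.20 and -0.004. By counting error alone, after both siRNAs against control the interval lay below 1 for 6 of the 9 genes and above 1 for 2, while it did so for 32.1% and 29.0% of all tested clusters. Such intervals narrow as reads rise. The 9 genes had 20.6 CPM or more in the control, while the tested clusters reach down to 1 CPM, so these shares are not matched for level.

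**Figure D2:**
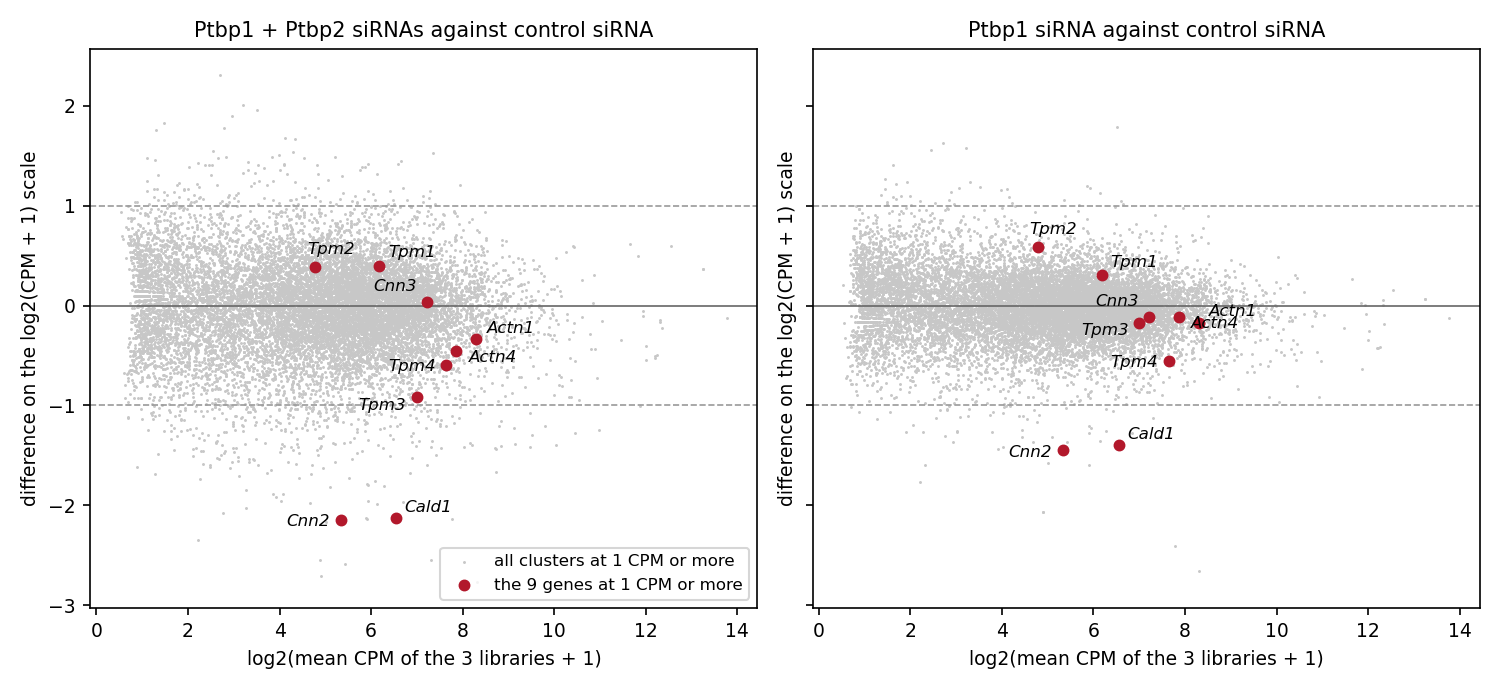
Difference from the control library on the log2(CPM + 1) scale against mean level for all tested clusters (grey) and the 9 genes (red), for both siRNAs (left) and Ptbp1 siRNA (right). Dashed lines mark the 2-fold limit. Cnn2 and Cald1 lie at the lower edge in both panels at -2.14 and -2.13 (left) and -1.45 and -1.40 (right), and the other 7 genes lie inside the limits.

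Cnn3, the acidic calponin found in brain and many other tissues (chr3:121129459-121161123), had 2239 reads after both siRNAs, 2400 after Ptbp1 siRNA and 2334 in the control, or 155, 139 and 151 CPM. The 3 libraries lay close together: the ratio of both siRNAs to control was 1.03 (0.969 to 1.09), and with Ptbp1 siRNA Cnn3 was 1.08-fold below the control (1.02 to 1.14). Its reads are less certain than those of Cnn2, because 41.2% of the 32-base words in its annotated exons recur elsewhere in the genome, against 3.92% for Cnn2 and 0.196% for Cald1. How reads with several matches were counted is not given in the sources used here. Cnn1, the calponin of differentiated smooth muscle (chr9:21903725-21914074), had 2, 4 and 1 reads and was near or under the limit of 3 counts, so no fold is given.

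Cnn2 made up 9.46% of the Cnn2 and Cnn3 reads after both siRNAs (exact 95% binomial interval 8.34 to 10.7), 16.1% after Ptbp1 siRNA (14.8 to 17.5) and 33.2% in the control (31.6 to 34.8). These shares are taken within a library, so they do not depend on the scaling, and their intervals do not overlap. Per length the calponin sum was 86.4 CPM per kb after both siRNAs, 84.8 after Ptbp1 siRNA and 117 in the control. The share of Cnn3 in that sum was 89.4%, 82.1% and 64.1%.

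The promoters of the 2 genes called lower are shown because Cnn2 and Cald1 were low in the same libraries and because serum response factor, which binds the CArG box, is a known regulator of actin-binding genes. They are RefSeq stretches of the GRCm38.p6 build, another build than the table's, from 250 bases before to 50 after an annotated start. Capitals mark a CArG box, taken as an exact match to CCWWWWWWGG, where W is A or T, searched on both strands as this consensus is palindromic. Inexact matches and bases outside these stretches were not searched, so a stretch without a match does not speak to them. Cald1 has 2 annotated starts and both are shown.
Cnn2, chr10:79988350-79988649, plus strand: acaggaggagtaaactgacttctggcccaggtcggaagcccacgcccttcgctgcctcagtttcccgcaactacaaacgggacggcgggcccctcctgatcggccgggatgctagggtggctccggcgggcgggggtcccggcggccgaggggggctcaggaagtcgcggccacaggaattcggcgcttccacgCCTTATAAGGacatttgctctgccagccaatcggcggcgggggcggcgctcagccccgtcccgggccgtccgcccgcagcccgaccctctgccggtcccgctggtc
Cald1, chr6:34598254-34598553, plus strand: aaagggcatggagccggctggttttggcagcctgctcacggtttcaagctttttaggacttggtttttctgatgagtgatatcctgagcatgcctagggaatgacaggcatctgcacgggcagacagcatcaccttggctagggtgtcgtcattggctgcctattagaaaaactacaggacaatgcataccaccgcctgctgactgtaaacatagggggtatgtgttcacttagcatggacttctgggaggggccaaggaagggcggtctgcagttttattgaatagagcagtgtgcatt
Cald1, chr6:34709194-34709493, plus strand: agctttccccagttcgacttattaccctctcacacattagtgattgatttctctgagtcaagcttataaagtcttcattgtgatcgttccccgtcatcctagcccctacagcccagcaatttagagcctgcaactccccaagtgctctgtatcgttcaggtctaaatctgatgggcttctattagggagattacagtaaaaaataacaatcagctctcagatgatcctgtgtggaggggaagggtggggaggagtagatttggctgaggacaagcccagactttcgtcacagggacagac

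The Cnn2 promoter held 1 CArG box starting 56 bases before the start site, and neither Cald1 stretch held one. All 10 genes matched, with 12 stretches, and the Cnn2 box was the only match among these. Of 32851 mouse promoters in the table, 1.63% held a CArG box. Base composition also differed, with 70.7% G and C in the Cnn2 stretch and 50.3% and 47.0% in the 2 Cald1 stretches.

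The tropomyosin genes went in both directions. Tpm1 and Tpm2, which encode the forms that dominate in muscle but also high molecular weight forms of other cells, exceeded the control in both knockdown libraries, within the 2-fold limit. Tpm1 (chr9:66870400-66897020, minus strand, 2774 bases) had 1156 reads after both siRNAs, 1287 after Ptbp1 siRNA and 934 in the control, or 79.9, 74.8 and 60.3 CPM. The ratio to control was 1.32 for both siRNAs (1.21 to 1.45) and 1.24 for Ptbp1 siRNA (1.14 to 1.35), and between the knockdown libraries it was 1.07 (0.986 to 1.16), an interval that holds 1. Tpm2 (chr4:43527583-43536260, minus strand, 2175 bases) had 394, 542 and 319 reads, or 27.2, 31.5 and 20.6 CPM. It exceeded the control 1.32-fold after both siRNAs (1.14 to 1.54) and 1.53-fold after Ptbp1 siRNA (1.33 to 1.76). Here the library with Ptbp1 siRNA alone was the highest, and Tpm2 was 1.16-fold lower with both siRNAs than in that library (1.01 to 1.32).

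Tpm3 and Tpm4, whose short forms are the main tropomyosins of non-muscle cells, were lower than in the control in both knockdown libraries, to different extents. Tpm3 (chr3:89876616-89904526, plus strand, 2569 bases) had 1206 reads after both siRNAs, 2414 after Ptbp1 siRNA and 2451 in the control, or 83.4, 140 and 158 CPM. The library with both siRNAs stood apart from the other 2. Tpm3 was 1.90-fold lower there than in the control (1.77 to 2.04) and 1.68-fold below the Ptbp1 siRNA library (1.57 to 1.80), while Ptbp1 siRNA against control was 1.13-fold lower (1.07 to 1.19). At -0.92 it was just inside the limit for a call, and in the comparison of both siRNAs with Ptbp1 siRNA its -0.74 was the lowest of the 9 genes, rank 193 of 13463.

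Tpm4 (chr8:74659191-74677028, plus strand, 2082 bases) had 2440, 2985 and 3950 reads in the order both siRNAs, Ptbp1 siRNA and control, or 169, 173 and 255 CPM. Both knockdown libraries were low and close to each other: the fold below the control was 1.51 after both siRNAs (1.44 to 1.59) and 1.47 after Ptbp1 siRNA (1.40 to 1.54), and 1.03 between them (0.975 to 1.09). About 26.6% of the 32-base words in Tpm3 exons and 33.1% of those in Tpm4 exons recur elsewhere in the genome, against 0.115% for Tpm1 and 0.304% for Tpm2, so the values of Tpm3 and Tpm4 are less certain. In addition 6.08% of the Tpm4 exon bases are shared with Gm17371.

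**Figure D3:**
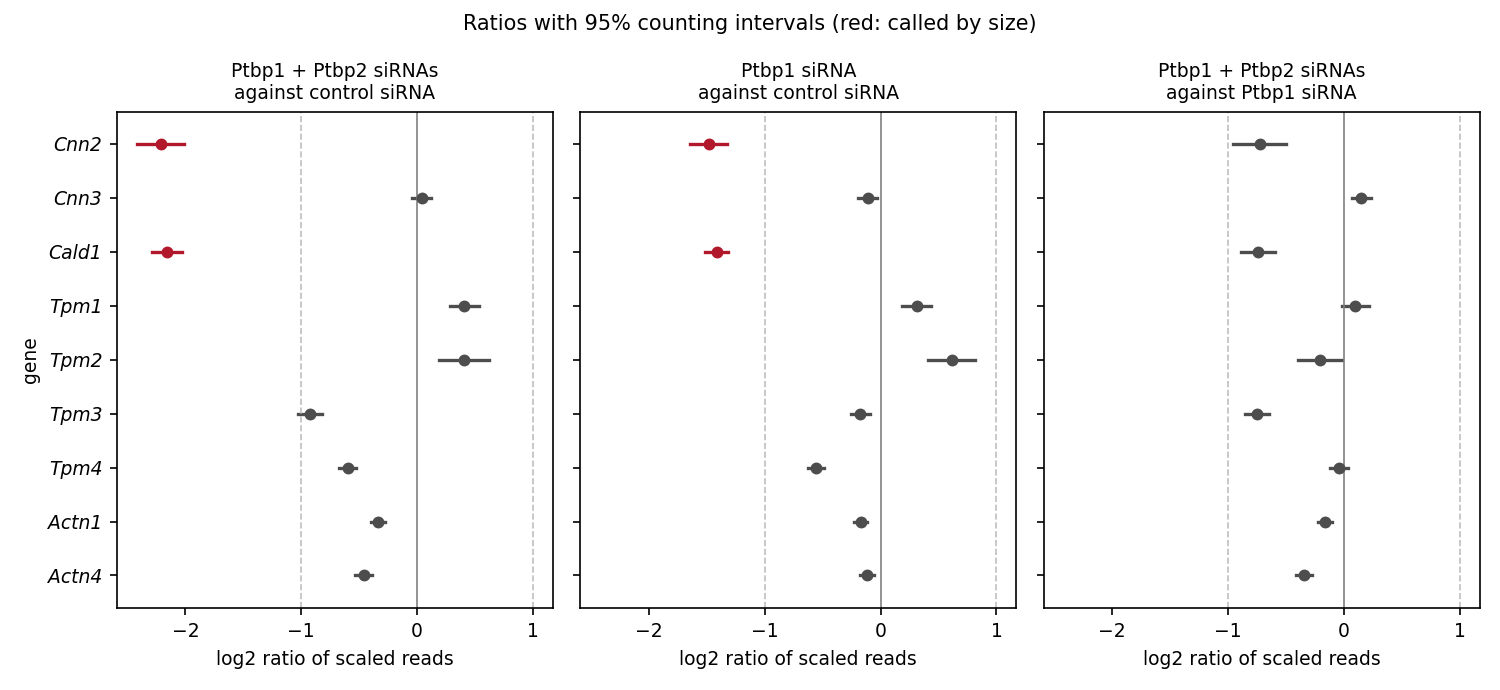
Log2 ratio of scaled reads for the 9 genes in the 3 comparisons, with 95% counting intervals as bars, and dashed lines at 2-fold. Cnn2 and Cald1 (red) are called lower against control in both knockdown libraries, Tpm3 is lower where both siRNAs were used, and Tpm4 is low to a like degree in both.

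The make-up of the tropomyosin pool differed between the libraries accordingly. Tpm1 and Tpm2 together held 29.8% of tropomyosin reads after both siRNAs (28.6 to 31.1), 25.3% after Ptbp1 siRNA (24.3 to 26.3) and 16.4% in the control (15.5 to 17.2). The intervals do not overlap, and both knockdown libraries are above the control. Per length, Tpm1 was 18.6% of the family after both siRNAs, 15.0% after Ptbp1 siRNA and 10.1% in the control, and Tpm2 was 8.09%, 8.07% and 4.40%. Tpm4 stayed the largest part at 52.3%, 46.5% and 56.9%, and Tpm3 held 21.0%, 30.4% and 28.6%. The sum of the 4 genes was 155 CPM per kb after both siRNAs, 179 after Ptbp1 siRNA and 215 in the control.

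Within the non-muscle pair, Tpm3 held 33.1% of the Tpm3 and Tpm4 reads after both siRNAs (31.6 to 34.6), 44.7% after Ptbp1 siRNA (43.4 to 46.0) and 38.3% in the control (37.1 to 39.5). The knockdown libraries thus lay on opposite sides of the control. Within the other pair there were 2.93 Tpm1 reads per Tpm2 read after both siRNAs (2.61 to 3.30), 2.37 after Ptbp1 siRNA (2.15 to 2.63) and 2.93 in the control (2.58 to 3.34). Set against the tropomyosins, caldesmon was scarcer in the knockdown libraries. Its per-length level was 4.50% of the summed caldesmon and tropomyosin level after both siRNAs, 6.38% after Ptbp1 siRNA and 13.1% in the control.

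**Figure D4:**
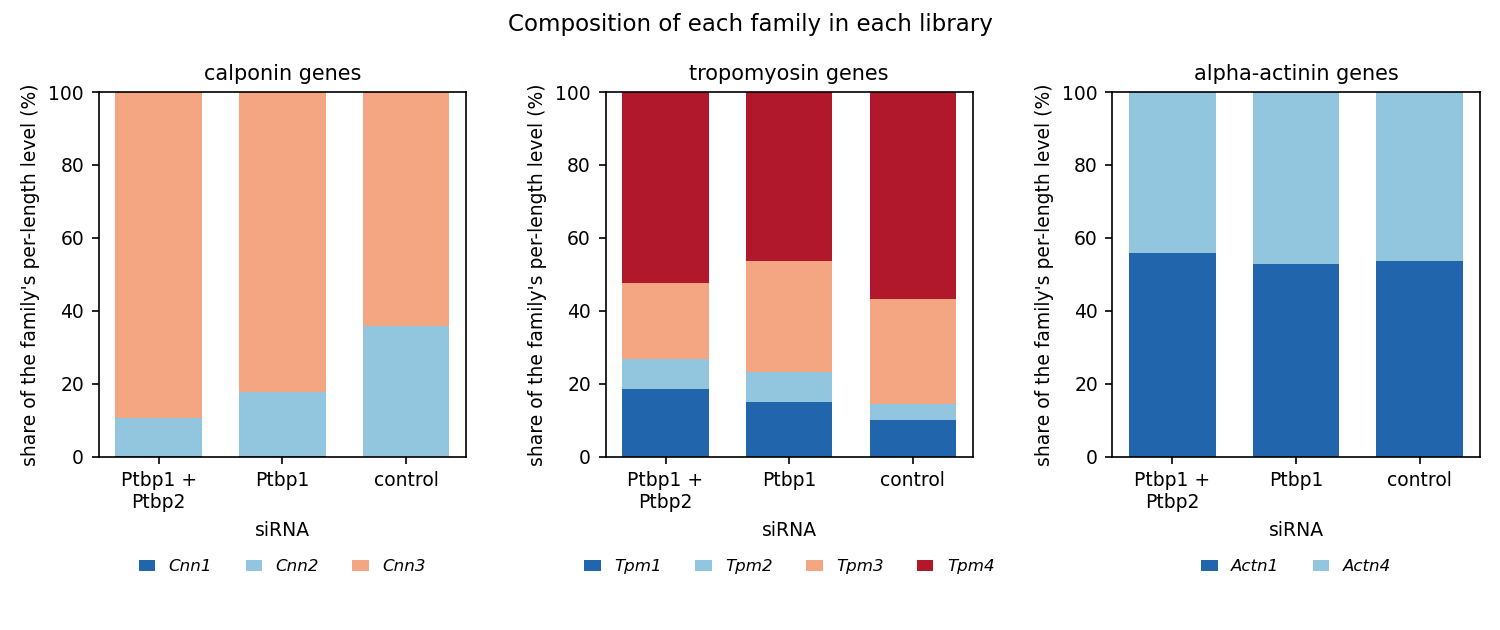
Share of each gene in the per-length level of its family, by library, with the groups side by side and each bar adding to 100%. The Cnn2 part of the calponins is 10.5% after both siRNAs, 17.7% after Ptbp1 siRNA and 35.8% in the control, the Tpm1 and Tpm2 parts are wider in the knockdown libraries, and the alpha-actinin split is nearly level. Cnn1 is too low to be seen.

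The non-muscle alpha-actinin genes were below the control within the 2-fold limit. Actn1 (chr12:81268534-81361303, minus strand, 4014 bases) encodes the non-muscle form of stress fibres and adhesions and had 4029, 5376 and 5451 reads in the order both siRNAs, Ptbp1 siRNA and control, or 279, 312 and 352 CPM. Against the control it was 1.26-fold lower after both siRNAs (1.21 to 1.32) and 1.13-fold lower after Ptbp1 siRNA (1.08 to 1.17). Actn4 (chr7:29678605-29747299, minus strand, 3479 bases), the second non-muscle form, had 2760, 4172 and 4069 reads, or 191, 242 and 263 CPM. Relative to the control it was 1.38-fold lower after both siRNAs (1.31 to 1.45) and 1.08-fold lower after Ptbp1 siRNA (1.04 to 1.13). For both genes the library with both siRNAs was the lowest. Of the 13465 clusters tested, 21.7% lay below Actn1 and 15.0% below Actn4 in that comparison, so such differences were common. Actn1 gave 1.46 reads per Actn4 read after both siRNAs (1.39 to 1.53), 1.29 after Ptbp1 siRNA (1.24 to 1.34) and 1.34 in the control (1.29 to 1.40), and 6.73% of the Actn4 exon bases are shared with Capn12.

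The muscle alpha-actinin gene Actn2 was measured among 4 lists of further genes. It had 116, 180 and 80 reads in the same order and was 1.55-fold higher than in the control after both siRNAs (1.16 to 2.09) and 2.03-fold higher after Ptbp1 siRNA (1.55 to 2.67), which on the log2(CPM + 1) scale is 0.55 and 0.89. Actn3, the other muscle form, had 9, 8 and 14 reads and did not reach 1 CPM. Of the 22 alpha-actinin partners found, 14 were tested after both siRNAs against control, with a median of -0.27. There 2.67% of all tested clusters were called lower and 1.05% higher, and of the 14 partners 1 was called lower and none higher. That gene was Vcl, which encodes the adhesion protein vinculin, with 550, 813 and 1364 reads. It was 2.32-fold lower after both siRNAs (2.10 to 2.56) and 1.86-fold lower after Ptbp1 siRNA (1.71 to 2.04).

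Genes of the thin filament itself gave no common direction. Of 29 found, 18 were tested after both siRNAs against control, the median was 0.17, and 2 were called higher and none lower. Over all tested clusters in that comparison 1.05% were called higher and 2.67% lower. Tmod1 encodes tropomodulin 1, which caps the slow end of a filament by binding tropomyosin and actin there. It had 252, 193 and 94 reads in the order both siRNAs, Ptbp1 siRNA and control, and exceeded the control 2.87-fold after both siRNAs (2.26 to 3.68) and 1.85-fold after Ptbp1 siRNA (1.44 to 2.39). Its paralogue Tmod2 of neurons was at 0.58 and the widely expressed Tmod3 at -0.70 after both siRNAs. Tagln3, a neuronal transgelin with a calponin-like domain, had 778, 780 and 330 reads. Its level exceeded the control 2.52-fold after both siRNAs (2.22 to 2.88) and 2.13-fold after Ptbp1 siRNA (1.87 to 2.43). Its relative Tagln2 was at -0.30, and the cytoplasmic actin genes Actb and Actg1 were at -0.40 and -0.77.

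None of the 17 actomyosin regulators tested after both siRNAs against control was called, with a median of -0.18. Over all tested clusters 3.73% were called in either direction, so a list this short could hold no call at that share. Rock1, a kinase gene that promotes contraction, had 834, 1449 and 1774 reads and a difference of -0.98, the myosin light chain gene Myl6 was at -0.60, and Ppp1r12b, a myosin phosphatase subunit gene, was at 0.50. Of 11 genes of serum response factor, its cofactors and targets, 7 were tested in that comparison, with a median of -0.20. None of the 7 was called, again beside 3.73% over all clusters. Srf itself was at -0.04. Egr1 was at 0.74, the cofactor gene Mkl2 at -0.63 and Cyr61 at -0.52, while the smooth muscle cofactor gene Myocd was listed at 0. After both siRNAs against Ptbp1 siRNA alone, Cyr61 was called lower, with 53 against 159 reads, where the control had 88. It was the only call among the 7 genes tested there, beside 0.342% of all tested clusters called lower and 0.0891% higher. After Ptbp1 siRNA alone Cyr61 exceeded the control 1.63-fold (1.25 to 2.13). Of the 4 fibroblast markers tested after both siRNAs against control, 1 was called lower and none higher. It was Col1a1, with 48 reads, 88 after Ptbp1 siRNA and 122 in the control. Of the 11 neuroblastoma markers tested there, Dbh and Phox2a were called higher and none lower. Over all tested clusters in that comparison 2.67% were called lower and 1.05% higher. The summed markers of fibroblasts, of muscle and of blood and endothelium were lowest in the library where Cald1 and Cnn2 were lowest. The glial sum was lowest in the control. Smtn alone gave 32.6, 46.8 and 53.2 CPM of the muscle sums of 59.2, 75.4 and 74.1 CPM. After both siRNAs against control the 7 tested muscle markers had a median of 0.43 and the 4 tested fibroblast markers one of -0.33. What part such cells had in the Cald1 and Cnn2 values was not tested.

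**Figure D5:**
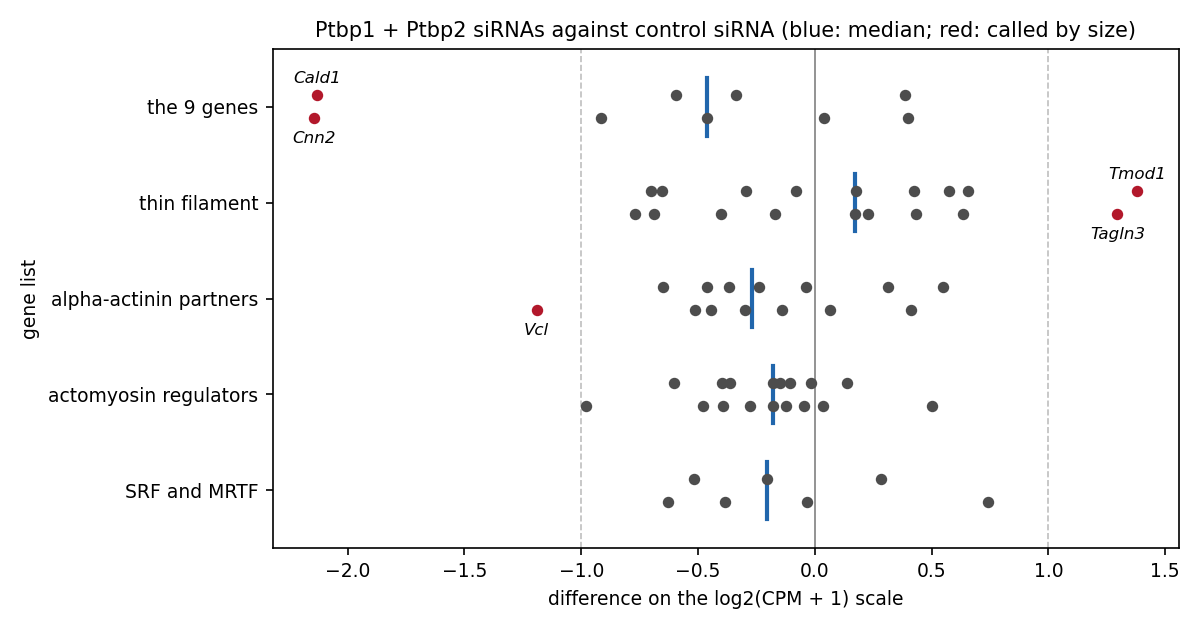
Differences after both siRNAs against control on the log2(CPM + 1) scale for the 9 genes and the tested members of the 4 further lists, with 1 point per gene, the median in blue and genes called by size in red. Cnn2, Cald1 and Vcl lie beyond 2-fold on the lower side, Tmod1 and Tagln3 on the higher side, and the other points lie between.

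The genes closest to Cnn2 and Cald1 were sought among 8971 clusters with at least 200 reads in every library, by distance in the plane of the 2 differences from the control. Cald1 was the nearest to Cnn2 and Cnn2 the nearest to Cald1, at a distance of 0.05 log2 units. Rcn3, a calcium-binding protein gene of the endoplasmic reticulum, was also among the 3 nearest to each, at -2.03 after both siRNAs and -1.32 after Ptbp1 siRNA. Txnip, which encodes a thioredoxin-binding arrestin, was among the 3 nearest to Cald1, at -1.99 and -1.36. The likeness rests on 3 libraries and describes them alone.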

How the data were processed

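For 3 libraries, the authors' deposited table lists net reads, exonic length and RPKM per gene cluster, per the file headers. The submitters' processing notes name the mm9 build. Neither aligner nor read counter is given in the sources used here. Read numbers lay below 0 in 38 clusters, down to -65, so something had been subtracted. Those clusters and 127 without a length were left out, and the other 27224 were treated as read counts, which makes the intervals approximate. Deposited starts equalled annotated transcript starts in 10711 clusters as given and in 768 after adding 1, while ends did so in 10584 after subtracting 1, so coordinates are printed with the start as deposited and the end less 1.

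Library sums were multiplied by trimmed-mean factors (M trimmed by 30%, A by 5%; numpy 2.4.6) of 1.02 for both siRNAs, 1.02 for Ptbp1 siRNA and 0.967 for control. A pseudocount of 1 CPM was used. Intervals came from scipy 1.17.1 and the procedure was tested on simulated data. Exon overlap and words of 32 bases were read from the genome and annotation of the same build. PCR copies cannot be told from separate molecules, so intervals and limits cover counting error only. The labels do not say how many cultures gave a library.

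Members and lists were chosen with earlier results of these data known. Named from each list were its called genes, or the 3 with the largest difference after both siRNAs against control. Srf, Actn2, Actn3, Tmod2, Tmod3, Tagln2, Actb, Actg1, Myocd and, for the comparison between knockdowns, Cyr61 were named after their values were seen. The ratios between genes within a library, the shares within a family and the sequence motifs were also chosen after values were seen. The alternatives were pseudocounts of 0.1 and 5 CPM, no filter or 5 CPM, library-sum and median-of-ratios scaling, the deposited RPKM, limits of 1.5-fold and 3-fold, and summed rows per symbol. The plan foresaw counts or normalized values, and net reads were used as counts. The table held 0 further columns of per-sample values. One gene that the rule for nearest genes names is not reported here.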

Additional observations from a re-analysis of the deposited data

How the results depend on the processing

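With 1 library per group no difference has a replicate, and a gene with few reads, such as Cnn1, gives no usable fold. No paired analysis was possible because each group has 1 library. Cnn2 and Cald1 were called lower after both siRNAs against control under every alternative, with log2 differences between -2.20 and -1.92 for Cnn2 and between -2.16 and -1.89 for Cald1. No difference of the 10 genes changed sign under any alternative. The 1.5-fold limit gave 4 lower calls among them after both siRNAs against control, 1 higher call (Tpm2) after Ptbp1 siRNA against control and 3 lower calls for both siRNAs against Ptbp1 siRNA, while the 3-fold limit left 0 lower calls for Ptbp1 siRNA against control. Over all clusters the 1.5-fold limit gave 1352 lower of 13465 tested, 392 higher of 13399 and 474 lower of 13463 in these comparisons. The median after both siRNAs against control was -0.39 under library-sum scaling and -0.39 with the deposited RPKM, against -0.46, and after Ptbp1 siRNA against control it was -0.10 under each of these, against -0.17. Of 180 values of single genes under the alternatives 16 left their counting interval. The 30 values from summed rows could not differ from the reported ones, because each symbol had 1 row. Counts over all clusters are given as lower and higher, for both siRNAs against control, then Ptbp1 siRNA against control, then both siRNAs against Ptbp1 siRNA, where the reported ones are 360 and 142, 61 and 36, 46 and 12. A pseudocount of 0.1 CPM gave 544 and 344, 139 and 158, 168 and 88, and 5 CPM gave 177 and 44, 26 and 4, 9 and 1. The deposited RPKM gave 167 and 83, 35 and 13, 19 and 7. The 1.5-fold limit gave 1352 and 974, 464 and 392, 474 and 246, and the 3-fold limit 48 and 9, 7 and 2, 1 and 1. A filter of 5 CPM gave 21 higher calls for Ptbp1 siRNA against control and 6 for both siRNAs against Ptbp1 siRNA. A lower or higher limit or pseudocount changes by construction how many clusters pass, and the cause of the difference with the deposited RPKM was not tested.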
